A study of Mus musculus with 26 samples.

Results

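The regions described here carried an H3K27ac peak in control and in nonpermissive supporting cells of the mouse cochlea and no peak in permissive supporting cells. Peaks of the 6 H3K27ac libraries on chromosomes 1 to 19 and X were merged wherever they shared at least 1 bp, which gave 232378 regions. A region was chosen by peak presence: a peak in both control libraries, in both nonpermissive libraries and in neither permissive library. This rule kept 1793 regions, 0.772% of all merged regions. They are called lost regions below, where lost means only that no permissive peak was called. Cochleae were taken on postnatal day 1, cultured as whole organs, and given either DAPT, a gamma-secretase inhibitor and so a blocker of Notch, or only the solvent DMSO, for 48 h. Control cells were Lfng-CreER/TdT+ cells from DMSO cultures. Nonpermissive cells were Lfng-CreER/TdT+ cells from DAPT cultures without the Atoh1-GFP reporter, and permissive cells carried both the TdT label and Atoh1-GFP. Each of the 3 groups had 2 H3K27ac and 2 ATAC libraries. RNA at 48 h came from 2 control, 3 nonpermissive and 3 permissive libraries. Earlier RNA, from 24 h of treatment, came from Lfng-GFP+ cells that were not split by Atoh1-GFP, with 3 DMSO and 3 DAPT libraries made with another kit. The Lfng driver sets which supporting cells could be labelled, and the Atoh1 reporter defines the permissive gate, so permissive cells differ from the others by that reporter by construction. The labels give no strain and do not say that replicates came from separate animals, so the spread behind every p-value may be technical rather than biological.

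Acetylation of lysine 27 of histone H3 marks active promoters and active distal enhancers, and it is removed as an element falls silent. Supporting cells surround the sensory hair cells of the organ of Corti and are held in their fate by Notch signalling from hair cells. When that signal is blocked in the newborn cochlea, some supporting cells switch on the hair cell factor Atoh1 and convert towards hair cells, and others do not.

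RNA depth ranged from 2165338 to 4896374 expected counts per library at 48 h and from 10666050 to 13158897 at 24 h. The depth of the ATAC and H3K27ac libraries is unknown, because only their peak lists were used. Those lists held 46148 to 114527 H3K27ac peaks per library. The nonpermissive 1 and permissive 1 lists covered 79.2 and 87.6 Mb, and the other 4 covered 22.5 to 27.1 Mb. The groups matched their labels in RNA: of 23 tested genes of the hair cell bundle, synapse and cytoskeleton, 20 rose in permissive against control cells, and their summed level was 5780 to 8032 library-scaled counts (CPM) in permissive libraries against 253 to 450 CPM in control and 396 to 510 CPM in nonpermissive libraries.

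For 89 of the lost regions a whole RefSeq promoter window lay inside, from 250 bases before to 50 bases after an annotated start. The 250 bases before the start are printed for 8 of them (RefSeq, build GRCm38.p6, the assembly called mm10), because they show what the lost acetylation covers at a gene start. Each is written 5′ to 3′ on the strand of its gene. The first 4 had the highest lowest fold enrichment over the control and nonpermissive libraries among lost regions open in all 4 of those ATAC libraries, and the other 4 ranked next among genes of the lists described below. Capitals mark matches, on either strand, to GGAATG (the core of the TEAD motif), TGGGAA (RBPJ), AACAAT (SOX) or TGANTCA (AP-1). No matches overlap in the printed sequences.
Fblim1, chr4:141599999-141600248, minus strand: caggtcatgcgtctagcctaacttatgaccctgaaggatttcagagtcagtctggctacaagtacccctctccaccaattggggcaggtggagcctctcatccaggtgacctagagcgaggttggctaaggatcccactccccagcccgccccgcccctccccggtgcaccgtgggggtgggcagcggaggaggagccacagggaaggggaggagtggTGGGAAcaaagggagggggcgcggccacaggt
Tmcc3, chr10:94550622-94550871, plus strand: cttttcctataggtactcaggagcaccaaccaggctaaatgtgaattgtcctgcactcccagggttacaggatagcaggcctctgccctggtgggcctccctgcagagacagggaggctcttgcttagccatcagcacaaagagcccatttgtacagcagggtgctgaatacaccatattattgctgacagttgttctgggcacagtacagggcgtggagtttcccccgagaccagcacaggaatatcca
Liph, chr16:21995543-21995792, minus strand: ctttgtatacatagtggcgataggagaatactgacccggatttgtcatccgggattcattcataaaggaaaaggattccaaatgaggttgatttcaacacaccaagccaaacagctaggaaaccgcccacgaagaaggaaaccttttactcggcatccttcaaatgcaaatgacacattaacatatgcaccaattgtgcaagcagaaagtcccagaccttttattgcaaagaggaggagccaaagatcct
Inhba, chr13:16011601-16011850, plus strand: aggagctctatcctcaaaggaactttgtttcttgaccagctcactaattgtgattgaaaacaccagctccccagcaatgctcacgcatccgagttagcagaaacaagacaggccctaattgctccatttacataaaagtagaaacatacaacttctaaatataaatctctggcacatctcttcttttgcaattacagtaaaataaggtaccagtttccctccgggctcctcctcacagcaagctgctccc
Gjb6, chr14:57133612-57133861, minus strand: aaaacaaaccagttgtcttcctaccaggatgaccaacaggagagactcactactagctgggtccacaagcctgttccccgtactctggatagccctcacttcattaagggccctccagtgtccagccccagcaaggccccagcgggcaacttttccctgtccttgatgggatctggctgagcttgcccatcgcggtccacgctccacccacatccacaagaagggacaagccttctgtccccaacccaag
Prss23, chr7:89518205-89518454, minus strand: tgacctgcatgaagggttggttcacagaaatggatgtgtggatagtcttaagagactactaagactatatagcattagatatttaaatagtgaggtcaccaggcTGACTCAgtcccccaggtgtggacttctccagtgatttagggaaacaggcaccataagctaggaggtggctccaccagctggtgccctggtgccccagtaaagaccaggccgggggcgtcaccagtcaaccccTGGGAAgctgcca
Amotl1, chr9:14615001-14615250, minus strand: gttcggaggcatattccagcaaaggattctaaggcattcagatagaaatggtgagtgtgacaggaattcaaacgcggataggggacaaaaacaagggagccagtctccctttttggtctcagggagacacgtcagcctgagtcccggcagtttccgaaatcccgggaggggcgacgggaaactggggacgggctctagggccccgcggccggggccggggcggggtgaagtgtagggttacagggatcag
Yap1, chr9:8004597-8004846, minus strand: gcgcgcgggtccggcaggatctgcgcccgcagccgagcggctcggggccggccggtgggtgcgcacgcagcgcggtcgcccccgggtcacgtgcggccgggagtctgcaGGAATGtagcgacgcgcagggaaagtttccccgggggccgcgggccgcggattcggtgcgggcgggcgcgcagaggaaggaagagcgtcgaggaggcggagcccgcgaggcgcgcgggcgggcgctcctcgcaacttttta

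The printed promoters differ in their CpG content. The 250 printed bases of Yap1, which encodes the Hippo pathway coactivator, held 44 CpG dinucleotides, and those of Amotl1, an angiomotin-family partner of YAP, held 15. Those of Prss23 and Tmcc3 each held 2. The Prss23 sequence held 1 match to the AP-1 letters and 1 to the RBPJ letters, the Fblim1 sequence held 1 RBPJ match and the Yap1 sequence held 1 TEAD match. Those of Tmcc3, Liph, Inhba, Gjb6 and Amotl1 held no match to these 4 motifs in the printed window.

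The promoter windows inside lost regions held fewer CpG than those inside regions acetylated in all 6 libraries. CpG and motif letters were counted in the 250 bases before each start. Over the 105 windows in lost regions the median was 9 CpG, against 17 in 4727 windows inside regions acetylated in all 6 libraries and 10 in all 21045 windows of the RefSeq table. Windows with 5 or fewer CpG made up 37.1% of those in lost regions, 6.16% of those in regions acetylated in all 6 libraries and 37.2% of the whole table. The AP-1 letters were found in 15.2% of windows in lost regions, 3.36% of windows in regions acetylated in all 6 libraries and 6.17% of all windows. For the SOX letters the shares were 12.4%, 5.14% and 8.07%, for the RBPJ letters 21%, 19.5% and 21.1%, and for the TEAD letters 7.62%, 9.82% and 11.6%. These are letter matches in a window, described without a test.

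H3K27ac folds are given only to describe the lost regions, because peak presence in the same lists chose them. Folds of lost regions lay above those of all peaks of the same list and below those of regions acetylated in all 6 libraries. A region took its highest peak in each library, while all peaks were counted singly. The rule and this maximum both shape that order, which is not a result. Peak folds here are the authors' enrichment of each peak, and their scale differs between lists, so the lowest of a region's 4 folds, used below to rank regions, sets lists of unlike scale side by side. The median fold of the lost regions was 4.18 and 4.63 in control 1 and 2, and 6.8 and 4.57 in nonpermissive 1 and 2. In the same libraries the regions acetylated in all 6 had medians of 4.56, 5.66, 9.75 and 5.87, and all peaks had medians of 3.42, 4.11, 4.14 and 3.92. Peaks with a deposited −log10 q of at least 5 were found at 19.7% and 17.4% of lost regions in control 1 and 2, at 86.8% in nonpermissive 1 and at 13.6% in nonpermissive 2. The lost regions had a median width of 1362 bp (range 426 to 6654 bp), against 2253 bp for regions acetylated in all 6 libraries.

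The size of the set depended on which list was asked to lack a peak. Another 3111 regions had the same 4 peaks and a peak in permissive 1 only, with a median permissive fold of 4.96 and a lowest of 2.65. A further 576 had one in permissive 2 only, with a median of 3.19 and a lowest of 2.39. On the inside of the rule, the lowest of a member's 4 folds had a median of 3.6 and a minimum of 2.57. Just outside it, 1546 regions lacked only the nonpermissive 2 peak and 104 lacked only the nonpermissive 1 peak, whose list is the broad one. With a library left out of the rule, the set held 2740 regions without control 2, 3339 without nonpermissive 2 and 4904 without permissive 1. The matching sets for the other pairs of groups were smaller. Peaks in both control and both permissive libraries and in neither nonpermissive library were found at 91 regions, a set that asks the broad nonpermissive 1 list to lack a peak. Peaks in both nonpermissive and both permissive libraries and in neither control library were found at 747.

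Of the 8 lost regions with the highest lowest fold, 6 had a start within 100 kb and 2 had none. Ranked in this way, the leading region was chr2:117779904-117783501, 3598 bp wide, with folds of 9.13, 10.8, 23.1 and 12.4 in control 1, control 2, nonpermissive 1 and nonpermissive 2. Its nearest start was 328375 bp away, and it was open in all 6 ATAC libraries. The region chr2:117870815-117874195 on the same arm also ranked among the first 8. A region inside Rab11fip4 (chr11:79648528-79651506), which encodes a RAB11 effector, had a lowest fold of 8.75. A region 5667 bp from the start of Asrgl1 (chr19:9141233-9145077), an asparaginase gene, had folds of 12.6, 10.3, 18.3 and 8.48, and ATAC peaks in all 4 control and nonpermissive libraries and in neither permissive one. The region 1035 bp from the start of the AP-1 gene Fos (chr12:85471620-85472855) had a lowest fold of 8.37 and was open in all 6 ATAC libraries. The others were a region in Parva (chr7:112439929-112443785), which encodes an integrin-linked actin binder, a region 27008 bp from Otud1 (chr2:19684739-19686979), a deubiquitinase gene, and a region in P4ha3 (chr7:100301290-100304289), a collagen prolyl hydroxylase gene.

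Chromatin at the lost regions was mostly open in control and nonpermissive cells and less often called open in permissive cells, with a wide gap between the permissive libraries. An ATAC peak overlapped 86.6% and 75.5% of lost regions in control 1 and 2, 72% and 83.7% in nonpermissive 1 and 2, and 26.5% and 60.6% in permissive 1 and 2. Both permissive shares lay below all 4 others. The ATAC lists differed in length, from 86988 peaks in permissive 1 to 170910 in permissive 2, so each share is read against other regions in the same library. Regions acetylated in all 6 libraries had an ATAC peak in 86.1% and 97.1% of cases in permissive 1 and 2, regions acetylated in any 4 libraries in 45.9% and 75.9%, and all merged regions in 16.2% and 31.5%. In control 1 and 2 the regions acetylated in any 4 libraries had one in 78.4% and 64.9%. The lost regions were thus more often open in control and less often open in permissive libraries than that set. It means a peak in exactly 4 of the 6 libraries, whichever these are, and it includes the lost regions. All others in it have a permissive H3K27ac peak, so this contrast is partly set by the choice of the sets. With 2 libraries a group no exact test can reach 0.05, and none was made.

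**Figure D1:**
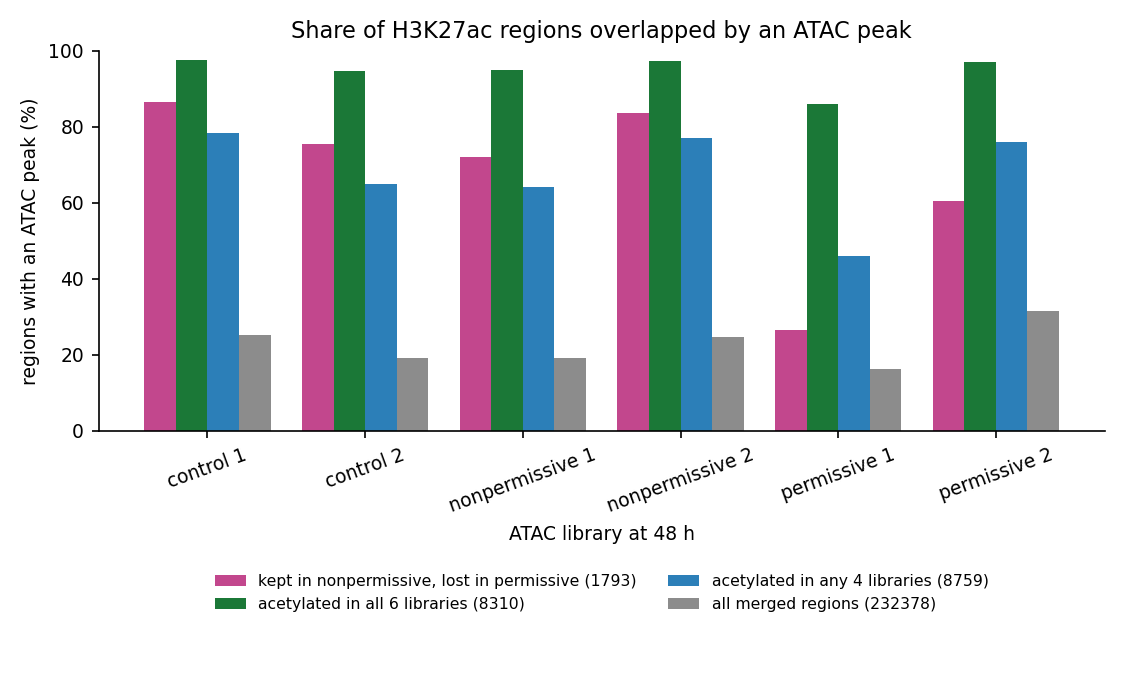
Percent of H3K27ac regions overlapped by an ATAC peak (vertical axis) in each of the 6 ATAC libraries at 48 h (horizontal axis), with 1 bar for each of 4 region sets. Lost regions stood at 72% to 86.6% in the control and nonpermissive libraries and at 26.5% and 60.6% in the permissive libraries.

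Loss of the H3K27ac call and loss of the ATAC call went together at only part of the set. ATAC peaks in both control and both nonpermissive libraries were found at 1124 lost regions, 62.7%. Of these, 384 were open in both permissive libraries as well, 500 in 1 permissive library and 240 in neither. The last class made up 13.4% of lost regions, 0.662% of the regions acetylated in all 6 libraries and 0.886% of all merged regions. Among the 1124, a peak remained in 35.7% in permissive 1 and 77.1% in permissive 2. The same shares over all merged regions open in those 4 libraries were 70.1% and 92.5%. A further 526 lost regions were open in 1 to 3 of the 4 libraries, 114 had no ATAC peak in any library, and 29 had one in permissive cells only.

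The lost regions were mainly distal. An annotated start lay inside 122 of them, 6.8%, against 52.7% of regions acetylated in all 6 libraries and 12.9% of those acetylated in any 4. Another 588 lay within 20 kb of a start, 711 at over 20 to 100 kb and 372 farther away, and the median distance was 30779 bp. A protein-coding gene span overlapped 60.1% of lost regions and 85.4% of regions acetylated in all 6 libraries. They were spread over all 20 chromosomes analysed, at 0.496% of the merged regions of chromosome X to 0.934% of those of chromosome 7. The nearest peak of permissive 1 was at a median of 8142 bp and that of permissive 2 at 8742 bp, and 11.5% and 9.7% of lost regions had one within 1000 bp. Another lost region lay within 20 kb of 18.1% of them.

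RNA of the genes nearest to the lost regions was mostly lower in permissive cells. Each region was given the gene with the nearest start within 100 kb, which is a rule of distance and not evidence that the region acts on that gene. This gave 1164 genes, of which 982 entered the fit at 48 h, 7.32% of the 13411 genes tested, and 167 with an RNA identifier did not pass its filter on low counts. A bulk fall can come from fewer cells of a type or from less RNA per cell, and these cannot be told apart here. In permissive against control cells, 273 of the 982 fell, 27.8%, where 7.28% of all 13411 tested genes fell (edgeR's quasi-likelihood test, Benjamini-Hochberg adjusted p under 0.05). Only 23 rose, 2.34%, where 5.72% of all tested genes rose. The median log2 fold change was -0.89, against 0.06 over all genes tested. Against nonpermissive cells, 239 fell, 24.3%, with 6.35% of all tested genes falling, and 32 rose, 3.26%, with 6.78% of all rising. Both comparisons share the permissive libraries: 212 genes fell in both, 77.7% of the first list and 88.7% of the second. Genes nearest to regions acetylated in all 6 libraries fell in 6.97% of cases against control, and those nearest to regions acetylated in any 4 in 12.3%. The latter set includes the lost regions and so their genes, and it is not a separate background. Where membership ignored the permissive 1 H3K27ac library, which gave 4904 regions, 16.6% of the nearest genes fell. The smaller count of rises against control was 13 without control 2, and that against nonpermissive cells was 20 or 21 without nonpermissive 3, nonpermissive 1 or permissive 1.

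**Figure D2:**
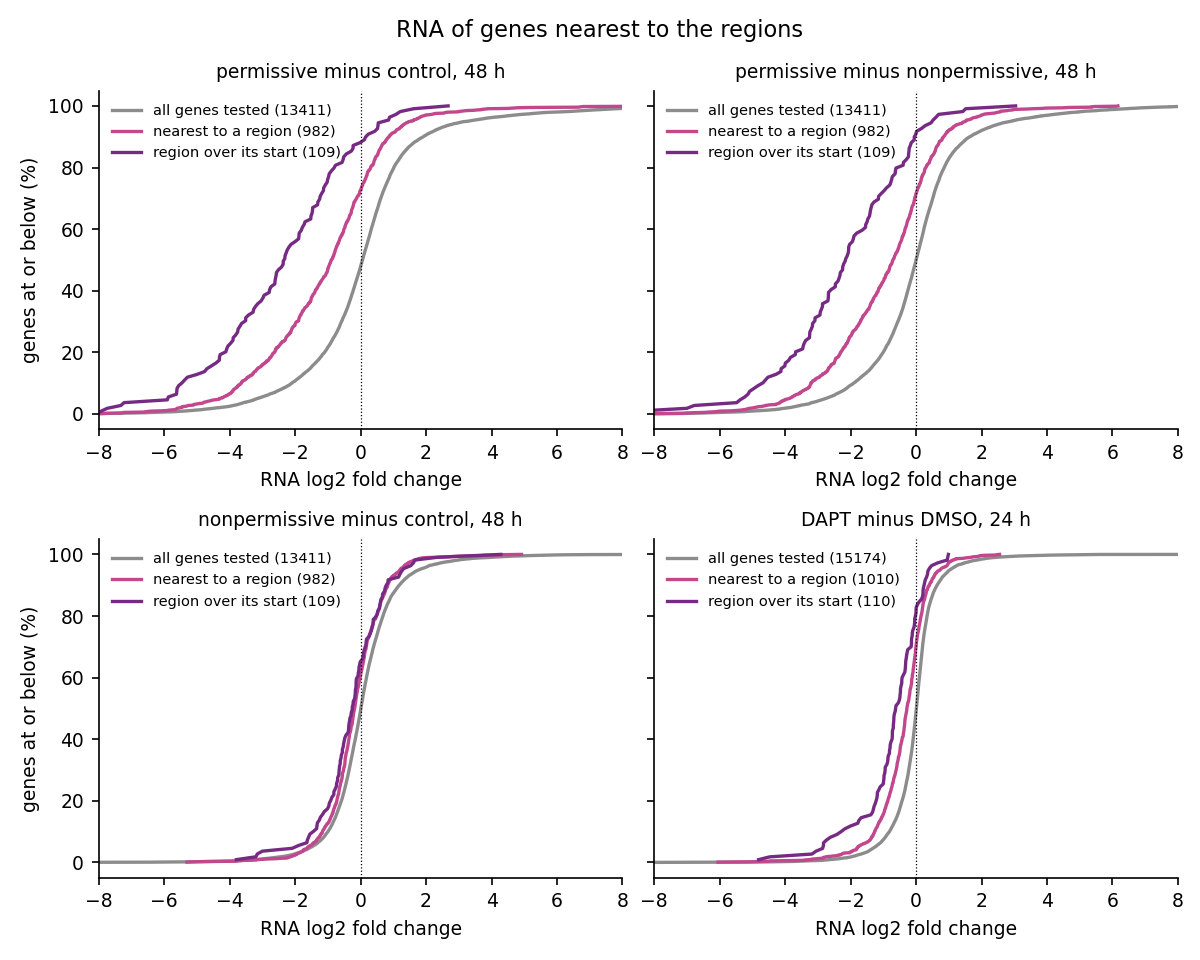
Cumulative percent of genes (vertical axis) at or below each RNA log2 fold change (horizontal axis, drawn from -8 to 8) in 4 comparisons, for all genes tested, genes nearest to a lost region and genes with a lost region over a start. In permissive minus control 72.6% of the 982 nearest genes were below 0, and in nonpermissive minus control 60.8%.

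The share of genes that fell was larger the nearer and the more numerous the lost regions were. With a lost region over the start, 59 of 109 genes fell in permissive against control cells (54.1%, median log2 fold change -2.31). With one within 20 kb and none over the start, 123 of 434 fell (28.3%), and with one only at over 20 to 100 kb, 91 of 439 fell (20.7%). Of genes with 1 lost region 23.3% fell, of genes with 2 regions 44.4%, and of genes with 3 or more 27 of 46 fell, 58.7%. All 23 genes that rose had 1 lost region, and 18 of them had it only at over 20 kb. Among the 109 genes with a region over the start none rose by edgeR's adjusted p, and 2 rose at an unadjusted p under 0.05. The ATAC call did not split the genes in this way: 30.1% fell among genes with a region open in the 4 libraries and closed in both permissive libraries, and 35.3% among genes with a region open in all 6 and none of the former class.

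**Figure D3:**
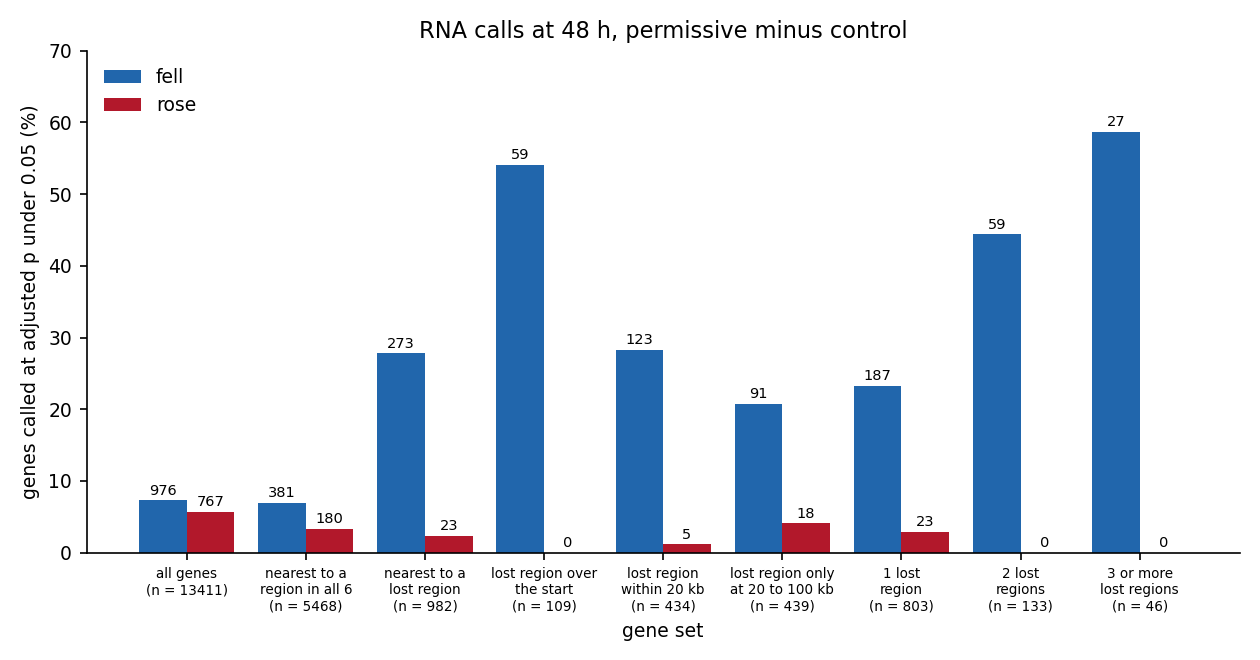
Percent of genes called in permissive minus control at 48 h (vertical axis), split into fell and rose, for gene sets by the position and number of lost regions (horizontal axis), with the number of genes over each bar. Falls ranged from 6.97% of genes nearest to a region acetylated in all 6 libraries to 58.7% of genes with 3 or more lost regions, with 7.28% over all genes.

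In nonpermissive cells, where the choice of the set fixed an H3K27ac peak, few of these genes were called against control. Of the 982 genes, 1 fell and none rose in nonpermissive against control cells by edgeR's adjusted p, 0.102%, where 0.194% of all tested genes were called in either direction. DESeq2 called 18 falls and 2 rises, and leaving out 1 library at a time gave 0 to 5 falls, the 5 without permissive 1. At an unadjusted p under 0.05, 62 fell and 19 rose, 6.31% and 1.93%, against 3.76% and 3.61% of all genes with a symbol. The median log2 fold change was -0.18, against 0 over all genes. The gene that fell was Lrmp, named after its value was seen. It read 35 and 40.8 CPM in control 1 and 2, 0.838, 0.571 and 1.28 CPM in nonpermissive 1 to 3, and 0, 0 and 0.809 CPM in permissive 1 to 3. The control level thus lay above all 6 libraries of DAPT cultures. The adjusted p against control was 0.0391 in nonpermissive and 0.00066 in permissive cells. The nonpermissive call was lost without any 1 of the control or nonpermissive libraries (adjusted p = 0.122 to 0.199).

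After 24 h of DAPT, in cells not sorted by Atoh1-GFP, genes nearest to lost regions fell more often than genes overall. Of 1010 nearest genes tested at 24 h, 377 fell, 37.3%, where 14.2% of all 15174 tested genes fell, and 78 rose, 7.72%, where 11.5% of all rose (48 rose without DAPT 1). The median log2 fold change was -0.28. Of the 273 genes that fell in permissive against control cells at 48 h, 200 also fell at 24 h, 73.3% of that list and 53.1% of the 377, and 6 rose. Over all 976 genes that fell at 48 h the same share was 68%, and the difference between these shares was not tested. No libraries are shared between these times, and the sort and the kit differ.

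Among genes of the Notch pathway, the receptor and its classical target fell at 48 h, and the nuclear partners did not pass the test at that time. Of 13 genes of this list, 10 fell in permissive against control cells and 4 had a lost region: Hes1, Notch1, Maml2 and Rbpj. Over all tested genes 7.28% fell in that comparison and 7.32% were nearest to a lost region. The lists below are read against the same shares. Hes1, a repressor switched on by Notch, had a lost region over its start (chr16:30063740-30065650), with H3K27ac folds of 5.71, 4.63, 16.6 and 5.22, and ATAC peaks in all 6 libraries. Its RNA read 41.9 and 36 CPM in control, 15.1, 13.7 and 8.64 CPM in nonpermissive, and 4.13, 2.68 and 1.62 CPM in permissive libraries. The 3 groups did not overlap and stepped down in that order, but nonpermissive against control did not pass the test (log2 fold change -1.64, adjusted p = 0.524). Hes1 fell by 3.74 on the log2 scale against control (SE 0.65, adjusted p = 0.00186) and fell by 2.1 against nonpermissive cells (adjusted p = 0.032). It fell by 3.18 at 24 h (adjusted p = 5.59e-06). The call against nonpermissive cells was lost without control 1, nonpermissive 1 or 2, or permissive 2 or 3 (adjusted p = 0.0544, 0.0983, 0.0669, 0.0815 and 0.0955). The receptor gene Notch1 had a lost region 31021 bp from its start (chr2:26534843-26536430) and read 527 and 755 CPM in control, 496, 105 and 223 CPM in nonpermissive, and 64.8, 77.3 and 51.4 CPM in permissive libraries. The permissive values lay below all others, and Notch1 fell by 3.31 against control (SE 0.57, adjusted p = 0.0017). Maml2, a coactivator of the Notch complex with 2 lost regions, and Rbpj, its DNA-binding partner, had log2 fold changes of -0.94 and -0.28 against control (adjusted p = 0.419 and 0.793). At 24 h Maml2 fell by 0.59 (adjusted p = 0.00615), and Rbpj had a log2 fold change of 0.15 (adjusted p = 0.443).

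Sox9, a factor of supporting cells and their progenitors, had a lost region, as 1 of 16 pan-supporting and prosensory genes, a share near the 7.32% of all tested genes. That region lay 11783 bp from its start (chr11:112769637-112770427), with folds of 3.8, 4.63, 4.14 and 3.26. Sox9 read 669 and 429 CPM in control, 457, 399 and 330 CPM in nonpermissive and 80.9, 122 and 52.2 CPM in permissive libraries. No permissive library reached the other groups, and Sox9 fell by 2.69 on the log2 scale (SE 0.45, adjusted p = 0.00155). At 24 h it fell by 1.26 (adjusted p = 0.000117).

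Pillar and Deiters cell genes with a lost region showed both falls and values that did not pass the test. The list had 20 genes, of which 7 fell and 1 rose, where 7.28% of all tested genes fell and 5.72% rose. A lost region was nearest to 6, where the share over all tested genes was 7.32%: Dusp6, Etv5, Lgr5, Lgr6, Prss23 and Tectb. Prss23, a secreted serine protease, had a lost region over its printed promoter (chr7:89517297-89518514) and another 3185 bp away. It read 713 and 693 CPM in control, 155, 369 and 180 CPM in nonpermissive and 25.2, 52.2 and 57.4 CPM in permissive libraries. The groups did not overlap, and Prss23 fell by 3.97 on the log2 scale (SE 0.52, adjusted p = 0.000302). Nonpermissive against control did not pass the test (log2 fold change -1.59, adjusted p = 0.366). Lgr6 fell by 4.31 (adjusted p = 0.00182). Lgr5, its relative and likewise an R-spondin receptor, had a lost region 36024 bp from its start (chr10:115623804-115624838) that was open in all 6 ATAC libraries. Lgr5 read 303 and 203 CPM in control, 378, 227 and 236 CPM in nonpermissive and 275, 178 and 172 CPM in permissive libraries, so the groups overlapped (log2 fold change -0.28, adjusted p = 0.753). At 24 h Lgr5 rose by 0.74 (adjusted p = 0.00383). Etv5 and Dusp6, both induced by FGF signalling, had log2 fold changes of -0.85 and -1.15 in permissive against control cells (adjusted p = 0.25 and 0.152).

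Inner phalangeal and border cell genes fell together and included a run of lost regions on chromosome 14. Of 10 genes in the list 7 fell in permissive against control cells, where 7.28% of all tested genes fell. A lost region was nearest to 6, where the share over all tested genes was 7.32%. Of the 6, 5 fell in both 48 h comparisons and at 24 h: Fabp7, Gjb2, Gjb6, Kcnj10 and Sparcl1. The Sparcl1 calls at 48 h were lost against control without control 2 or permissive 2 (adjusted p = 0.0904 and 0.052), and against nonpermissive cells without nonpermissive 2 or permissive 2 (0.0831 and 0.0966). Gjb2 and Gjb6 encode the connexins of the supporting cell gap junctions and lie side by side with Cryl1, a crystallin-related enzyme gene, on that chromosome. From the first region of Gjb2 to the last of Cryl1, 9 lost regions lay within 263 kb (chr14:57100711-57363237). Of these, 1 was open in all 6 ATAC libraries, and 2 were open in all 4 control and nonpermissive libraries but not in both permissive ones. Gjb2 read 1332 and 876 CPM in control, 1117, 1049 and 876 CPM in nonpermissive and 29.3, 77.7 and 74.8 CPM in permissive libraries. Gjb6 read 298 and 300 CPM, then 207, 310 and 236 CPM, then 5.16, 21.4 and 26.7 CPM in the same order. Both connexins thus sat within or close to the control range in nonpermissive cells and far below it in every permissive library. Gjb2 fell by 4.19 on the log2 scale (SE 0.5, adjusted p = 0.000176) and Gjb6 fell by 4.09 (SE 0.58, adjusted p = 0.000525). Cryl1, with 5 lost regions, read 95.7 and 39.9 CPM in control, 64.2, 40.5 and 70.7 CPM in nonpermissive and 5.16, 11.4 and 4.45 CPM in permissive libraries, and fell by 3.28 (SE 0.59, adjusted p = 0.00237). At 24 h Gjb2 and Gjb6 fell, with log2 fold changes of -0.89 and -0.98, and Cryl1 had a log2 fold change of -0.39 (adjusted p = 0.133).

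**Figure D4:**
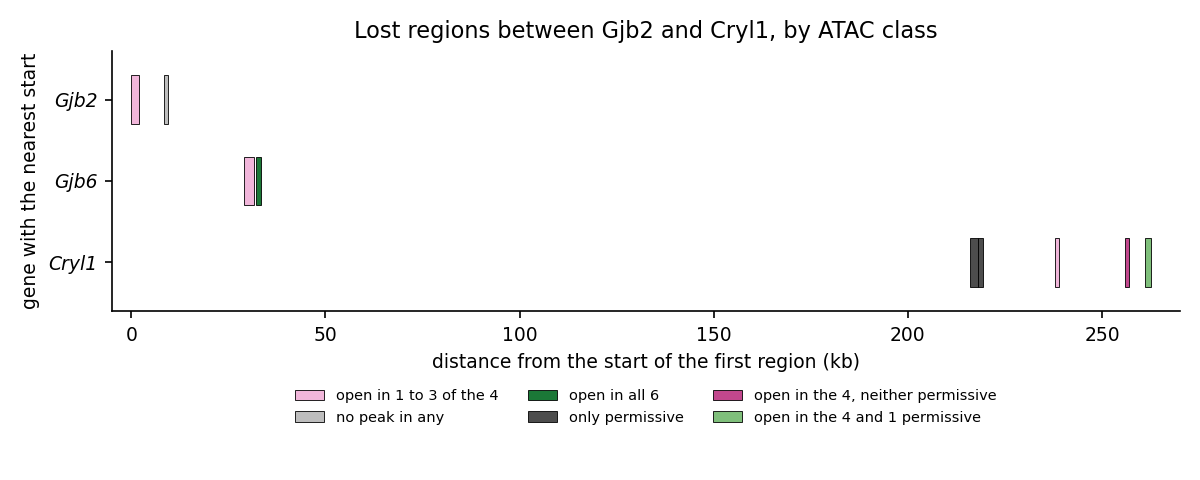
The 9 lost regions from Gjb2 to Cryl1, drawn to scale as bars by distance in kb from the start of the first (horizontal axis), in rows by the gene with the nearest start (vertical axis) and coloured by ATAC class, where the 4 are the control and nonpermissive libraries. The 4 regions nearest to Gjb2 and Gjb6 and the 5 nearest to Cryl1 form separate groups within 263 kb.

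The other inner phalangeal genes with lost regions included a potassium channel, a lipid carrier and a cadherin. Kcnj10, an inward rectifier potassium channel, had a lost region 1197 bp from its start (chr1:172342407-172343929) that was open in the 4 control and nonpermissive ATAC libraries and closed in both permissive ones. It read 473 and 207 CPM in control, 348, 287 and 174 CPM in nonpermissive and 14, 25.4 and 6.47 CPM in permissive libraries, and fell by 4.47 on the log2 scale (SE 0.6, adjusted p = 0.000339). Fabp7, a fatty acid binding protein also found in glia, had a lost region over its start (chr10:57783848-57786838). It read 109 and 58.5 CPM in control, 1.96, 6.28 and 9.92 CPM in nonpermissive and 0, 0.669 and 0.404 CPM in permissive libraries. Fabp7 values thus lay below control in both groups from DAPT cultures. Permissive libraries held 3 Fabp7 counts in all, so the ratio of control to permissive, 313, has a 95% counting interval of 107 to 1520 (adjusted p = 0.000217). Against control the nonpermissive log2 fold change was -3.79 (adjusted p = 0.0755, and 0.0435 with the replicate block). Cdh4, a cadherin with a lost region inside it 96713 bp from its start, was the exception in direction, with a log2 fold change of 1.19 at 48 h (adjusted p = 0.102) and a rise of 1.42 at 24 h (adjusted p = 3.77e-05).

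Matrix and tectorial membrane genes mostly fell, with or without a lost region. Of 17 tested genes in the list 14 fell in permissive against control cells, where 7.28% of all tested genes fell. A lost region was nearest to 5, where the share over all tested genes was 7.32%, and all 5 fell: Col11a1, Col2a1, Col4a3, Itga8 and Tectb. Tectb, which encodes a main protein of the tectorial membrane, had a lost region 21395 bp from its start (chr19:55157639-55159331), open in the 4 control and nonpermissive ATAC libraries and closed in both permissive ones. It read 15560 and 9942 CPM in control, 14540, 13300 and 15980 CPM in nonpermissive and 1764, 1927 and 919 CPM in permissive libraries. Nonpermissive libraries lay in the upper control range or just above it and permissive ones far below, and Tectb fell by 3.05 on the log2 scale (SE 0.45, adjusted p = 0.000627). Tectb did not pass at 24 h (log2 fold change 0.16, adjusted p = 0.463). The cartilage-type collagen gene Col2a1, with a lost region 28356 bp away (chr15:98033080-98034423), read 2947 and 7427 CPM in control, 3665, 3416 and 3850 CPM in nonpermissive and 136, 258 and 662 CPM in permissive libraries, and fell by 3.88 (SE 0.62, adjusted p = 0.00109). Col11a1 fell by 3.96 and the integrin gene Itga8 fell by 2.43. Col4a3, a basement membrane collagen chain, had 2 counts in the permissive libraries together, a ratio of control to permissive of 112 with a 95% counting interval of 30.6 to 931 (adjusted p = 0.000937).

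Mesenchyme makes fibrillar collagens as well, and its markers varied between libraries. The summed level of 12 tested mesenchyme markers was 524 and 3398 CPM in control, 1145 to 2691 CPM in nonpermissive and 200 to 790 CPM in permissive libraries, with at most 1 marker at 0 in any library, and 3 of the 12 fell in permissive against control cells. Lum, a proteoglycan gene of that list, had a lost region over its start (chr10:97564008-97568263). It read 246 and 332 CPM in control, 901, 2524 and 1038 CPM in nonpermissive and 4.54, 52.2 and 118 CPM in permissive libraries. It fell by 4.68 on the log2 scale against nonpermissive cells (adjusted p = 0.00295), with an adjusted p of 0.0913 against control and 0.0139 there with the replicate block. The part of mesenchyme RNA in the matrix gene values was not tested. With 1 library left out at a time, 182 to 266 genes nearest to lost regions fell in permissive against control cells, 182 without control 1 and 201 without control 2, the control library with more mesenchyme RNA.

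Among ridge, Hensen and Claudius cell genes, 7 of 14 tested fell, where 7.28% of all tested genes fell. A lost region was nearest to 4, Ano1, Cpxm2, Crabp1 and Tectb, where the share over all tested genes was 7.32%. All but Crabp1 fell. Cpxm2, a carboxypeptidase-like gene with 2 lost regions, read 838 and 809 CPM in control, 1006, 924 and 854 CPM in nonpermissive and 34.2, 63.9 and 54.6 CPM in permissive libraries. The nonpermissive values lay just above control and the permissive ones stood far below both, and Cpxm2 fell by 4.02 on the log2 scale (SE 0.43, adjusted p = 9.82e-05). At 24 h Cpxm2 had a log2 fold change of -0.01 (adjusted p = 0.981). Ano1, a calcium-activated chloride channel with a lost region 16886 bp away (chr7:144755459-144757070), fell by 3.78 (SE 0.47, adjusted p = 0.000237). Crabp1, a retinoid binding protein, read 0.561 to 7.7 CPM over all 8 libraries.

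Among signalling genes, a few ligands and Hippo coactivators near lost regions fell at 48 h, while most receptors and nuclear partners did not pass the test at that time. Of 17 tested genes of TGF-beta, BMP and activin signalling 3 fell, where 7.28% of all tested genes fell. Of those 3, 2 had a lost region. Tgfb2, a TGF-beta ligand, read 2444 and 1400 CPM in control, 1744, 1880 and 1381 CPM in nonpermissive and 193, 171 and 154 CPM in permissive libraries. Its nearest lost region lay 15126 bp away (chr1:186721115-186722389), inside the neighbouring gene Rrp15, and Tgfb2 fell by 3.48 (SE 0.43, adjusted p = 0.000212). Inhba, the activin A subunit gene whose promoter is printed, read 57.2 and 40.8 CPM in control, 31.3, 53.1 and 9.92 CPM in nonpermissive and 3.71, 1.34 and 3.23 CPM in permissive libraries, and fell by 4.12 (SE 0.73, adjusted p = 0.00217). The inhibitory Smad gene Smad6 had a log2 fold change of -2.08 (adjusted p = 0.187), and it fell by 0.92 at 24 h (adjusted p = 0.00426).

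Of 14 tested genes of the Hippo pathway 5 fell in permissive against control cells, where 7.28% of all tested genes fell. A lost region was nearest to 6, where the share over all tested genes was 7.32%, and 3 of the 6 fell. The coactivators Yap1 and Wwtr1 and their partner Amotl1 fell, with log2 fold changes of -2.74, -2.17 and -1.89 (adjusted p = 0.00103, 0.0121 and 0.0245). Yap1 read 174 and 108 CPM in control, 131, 137 and 115 CPM in nonpermissive and 25.8, 21.1 and 16.2 CPM in permissive libraries, so only the permissive libraries stood apart. The Wwtr1 call was lost without control 2 (adjusted p = 0.0912), and the Amotl1 call without control 2, permissive 1 or permissive 2 (adjusted p = 0.139, 0.058 and 0.0552). Tead1 and Tead4, the transcription factors that these coactivators bind, had log2 fold changes of 0.09 and 0.2 (adjusted p = 0.963 and 0.927), and both rose at 24 h, by 0.77 and 1.48. At 24 h the Tead4 call was lost without DAPT 2 (adjusted p = 0.0501), and the Tead1 call without DAPT 1 or 3 or DMSO 2 or 3 (0.0539 to 0.111). The kinase gene Lats2 had 3 lost regions, each within 3209 bp of the nearest of its starts, and a log2 fold change of -1.77 (adjusted p = 0.0952). At 24 h Lats2 fell by 0.75 (adjusted p = 0.0195), a call lost without DAPT 2 or DMSO 2 or 3 (0.0615 to 0.071).

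FGF and Wnt pathway genes with a lost region numbered 7 of 25, where 7.32% of all tested genes had one. Of the 7, 3 fell in permissive against control cells. In the whole list 7 of 24 tested genes fell, and over all tested genes 7.28%. Sfrp1, a secreted Wnt antagonist, read 2045 and 1436 CPM in control, 1504, 1173 and 968 CPM in nonpermissive and 219, 276 and 161 CPM in permissive libraries, and fell by 2.99 (SE 0.43, adjusted p = 0.000532). The nuclear Wnt effectors Tcf7l1 and Tcf7l2 fell, with log2 fold changes of -4.22 and -2.49 (adjusted p = 0.0149 and 0.0134). Both calls were lost without control 1 (0.17 and 0.158), and that of Tcf7l1 without permissive 2 as well (0.0534). The Wnt receptor gene Fzd9 behaved otherwise: it read 195 and 306 CPM in control, 50.5, 47.4 and 84.8 CPM in nonpermissive and 110, 158 and 133 CPM in permissive libraries. Its permissive values lay between the other groups, with log2 fold changes of -0.91 against control (adjusted p = 0.204) and 1.13 against nonpermissive cells (adjusted p = 0.0817, and 0.0422 with the replicate block). In nonpermissive against control cells the Fzd9 log2 fold change was -2.04 (adjusted p = 0.119, and 0.00422 with DESeq2). At 24 h Fzd9 fell by 1.95 (adjusted p = 3.96e-06). Its relative Fzd7 had a log2 fold change of -1.14 against nonpermissive cells (adjusted p = 0.208, and 0.0402 with the block). At 24 h Fzd7 rose by 0.55 (adjusted p = 0.0244), a call lost without DAPT 1 or DMSO 1 or 2 (0.0643 to 0.0964).

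Hair cell genes were looked up against the same share, the 7.32% of all tested genes that were nearest to a lost region, and short lists give few genes at that share. No lost region was nearest to any of the 25 genes of the hair cell bundle, synapse and cytoskeleton list. Of 16 hair cell transcription factors only Ikzf2, which encodes the outer hair cell factor Helios, had one (chr1:69591251-69592493, inside the gene). Ikzf2 went against its list, in which 9 of 15 tested genes rose: it read 65.1 and 25.7 CPM in control, 53.6, 34.8 and 116 CPM in nonpermissive and 7.63, 6.36 and 18.2 CPM in permissive libraries. The permissive values lay below the rest, and Ikzf2 fell by 2.69 on the log2 scale against nonpermissive cells (SE 0.63, adjusted p = 0.0112), a call lost without nonpermissive 3 (0.0613). Against control the change was -2.1 (adjusted p = 0.0505, and 0.00321 with the replicate block).

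Markers of other cell types that the sort could hold were looked up in the same way, in lists of 8 to 13 genes, where a share of 7.32% comes to 1 gene or none. None was nearest to a gene of the lists for spiral ganglion neurons, endothelium or blood and macrophages, and the glia list had Fabp7 and Mbp. The summed level of 7 tested glia markers was 625 and 1089 CPM in control, 544 to 790 CPM in nonpermissive and 111 to 277 CPM in permissive libraries, and its part in the falls was not tested. Mbp, the myelin basic protein gene, read 46.4 and 29.4 CPM in control, 35.7, 18.3 and 49.9 CPM in nonpermissive and 15.5, 6.36 and 10.1 CPM in permissive libraries, with adjusted p = 0.0594 against control and 0.0183 with the replicate block, and 0.059 against nonpermissive cells and 0.0301 with it. Of the melanocyte and stria list, Kcnj10 and the melanocyte factor Mitf had a lost region, and Mitf had a log2 fold change of -0.36 (adjusted p = 0.844).

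**Figure D5:**
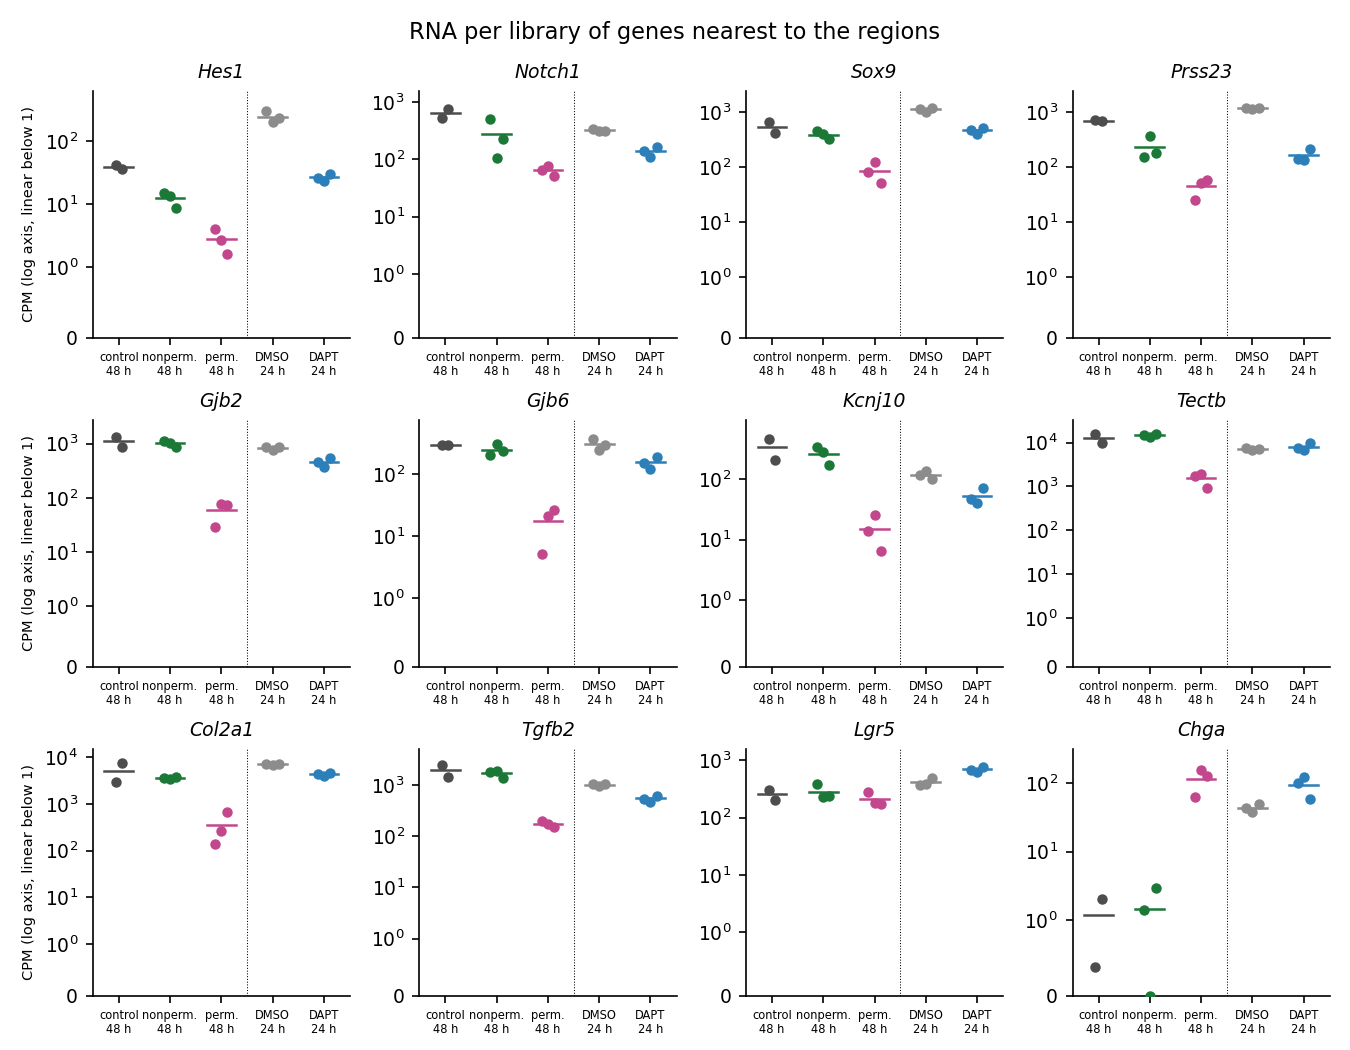
RNA of 12 genes nearest to lost regions, in CPM on a logarithmic axis that is linear below 1, with 1 point per library and a line at the group mean for the 3 groups at 48 h and the 2 at 24 h. Gjb2, Gjb6, Kcnj10, Tectb, Col2a1 and Tgfb2 lie near control in nonpermissive and far below it in permissive libraries. Hes1, Notch1 and Prss23 are lower on average in nonpermissive cells too, without passing the test against control. Lgr5 overlaps between groups and Chga is higher in permissive libraries.

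Genes with the most lost regions were not always genes that fell. Pakap, an anchor protein gene, had 6, and Carmil1, Cryl1, Fndc3b, Frmd4b and Zfp608 had 5 each. Fndc3b, a fibronectin type III domain gene, read 209 and 151 CPM in control, 150, 260 and 126 CPM in nonpermissive and 25.2, 39.2 and 40.8 CPM in permissive libraries, and fell by 2.36 on the log2 scale (SE 0.46, adjusted p = 0.00372). Frmd4b, a FERM domain scaffold gene, fell by 1.88 (adjusted p = 0.0108). It missed the threshold without control 1 (adjusted p = 0.123). Carmil1, a regulator of actin capping, fell by 2.21 at an adjusted p that rounds to 0.05, and missed the threshold with the replicate block (0.0539) and without control 1 (0.284), nonpermissive 1 (0.0624) or 2 (0.0675), or permissive 1 (0.0863) or 2 (0.113). Pakap and the zinc finger gene Zfp608 had log2 fold changes of -1.29 and -0.76 (adjusted p = 0.452 and 0.397). Fstl1, a secreted glycoprotein with 4 lost regions, read 4437 and 3924 CPM in control, 2499, 3179 and 2829 CPM in nonpermissive and 218, 582 and 369 CPM in permissive libraries. Its groups did not overlap, and it fell by 3.42 (SE 0.47, adjusted p = 0.000372). Nonpermissive against control did not pass the test (log2 fold change -0.56, adjusted p = 0.889). Tnfrsf19, a TNF receptor family member also with 4, read 145 and 154 CPM in control, 404, 461 and 166 CPM in nonpermissive and 5.16, 25.8 and 34.4 CPM in permissive libraries. It fell by 2.79 against control (adjusted p = 0.011) but rose by 0.67 at 24 h (adjusted p = 0.00123). Tbcel, a tubulin-binding gene, fell by 1.88 (adjusted p = 0.0109, and 0.0596 without control 2). Prkch, a protein kinase C gene, had a log2 fold change of -1 (adjusted p = 0.623) although it fell by 2 at 24 h. Its permissive libraries read 2.27, 28.1 and 1.21 CPM, and without permissive 2 the log2 fold change was -3.52 (adjusted p = 0.0401).

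Of the 6 genes beside the 8 lost regions with the highest lowest fold, 4 fell in permissive against control cells. The shares were 7.28% over all tested genes and 27.8% over all nearest genes. Fos read 993 and 807 CPM in control, 927, 1085 and 669 CPM in nonpermissive and 243, 190 and 197 CPM in permissive libraries, and fell by 2.1 (SE 0.4, adjusted p = 0.00352). P4ha3, Asrgl1 and Parva fell, with log2 fold changes of -5.31, -2.54 and -1.65 (adjusted p = 0.00103, 0.00364 and 0.0114), and the Parva call was lost without control 1 (0.0935). Against nonpermissive cells Asrgl1 had an adjusted p of 0.0575, and 0.0249 with the replicate block. Rab11fip4, whose region ranked among the first, overlapped between groups, at 31.2 and 19.7 CPM in control, 32.7, 17.1 and 22.1 CPM in nonpermissive and 25.4, 24.4 and 20.2 CPM in permissive libraries (log2 fold change -0.13, SE 0.54, adjusted p = 0.918). Otud1 had a log2 fold change of -1.62 (adjusted p = 0.224), and it rose by 0.55 at 24 h (adjusted p = 0.00315).

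Besides Fabp7 and Col4a3, other genes with large falls near lost regions were close to 0 in permissive cells. The kinase gene Frk, the iron reductase gene Cybrd1 and the guanylate cyclase gene Gucy1a1 fell, with log2 fold changes of -6.59, -6.58 and -5.9. Frk read 70.3 and 52.8 CPM in control, 52.2, 48.5 and 34.6 CPM in nonpermissive and 0.413, 0.335 and 1.21 CPM in permissive libraries. Permissive values thus lay near 0. Nonpermissive values lay just below control, a difference that did not pass the test (log2 fold change -0.45, adjusted p = 0.936). Among the genes of the printed promoters, Liph, a lipase gene, Tmcc3 and Fblim1, a filamin-binding adaptor gene, fell, with log2 fold changes of -5.38, -3.51 and -1.73 (adjusted p = 0.000544, 0.00103 and 0.027). The Fblim1 call was lost without control 1 or 2 or permissive 1 or 2 (0.0651 to 0.1).

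Among the 23 genes near lost regions that rose, the 4 largest rises were those of Chga, Snap25, Brinp2 and Pcdh8. The secretory granule gene Chga read 0.374 and 2 CPM in control, 1.4, 0 and 2.88 CPM in nonpermissive and 63.1, 154 and 127 CPM in permissive libraries, a rise of 6.66 on the log2 scale (SE 1, adjusted p = 0.000682). Its lost region lay 71675 bp away inside Itpk1 (chr12:102626616-102627288). Snap25, which encodes a protein of vesicle fusion, rose by 6.81 and Brinp2 by 5.18 (adjusted p = 0.00166 and 0.00351), with lost regions at 32405 and 30896 bp. Pcdh8, a protocadherin gene with a lost region 65278 bp away, was at 0 in both control libraries and read 65.8, 50.2 and 18.2 CPM in permissive libraries. Against a floor of 3 counts per control library the mean of the permissive libraries was at least 55.4-fold higher (adjusted p = 0.000668). All 4 also rose at 24 h, by 1.1 for Chga, 1.88 for Snap25, 2.55 for Brinp2 and 1.18 for Pcdh8. In each of these 4 the lost region was distal, and in none did it hold the start.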

How the data were processed

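RNA-seq, ATAC-seq and H3K27ac CUT&RUN were measured in sorted supporting cells, and samples were grouped by their titles and treatment labels. The authors deposited RSEM expected counts per gene and, for ATAC and H3K27ac, peak lists per library with a fold enrichment ratio and a −log10 q-value per peak. The submitters' processing notes name STAR, RSEM, DESeq2, Bowtie2, MACS2, UMI-tools and the build mm10, and of versions or settings nothing is given in the sources used here. Expected counts were rounded, low genes were removed by filterByExpr, TMM factors were applied, and groups were compared with edgeR's quasi-likelihood test (edgeR 4.0.16, R 4.3.3), with Benjamini-Hochberg adjustment over all genes tested and a threshold of 0.05. The 8 libraries at 48 h shared 1 fit and the 6 at 24 h another. The script was tested on simulated data with known changes. A symbol was found for 99.3% of RNA identifiers. DESeq2 1.42.0 was an alternative test.

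Regions were merged with Python 3.11.15, pandas 2.3.3 and numpy 2.4.6, and an ATAC peak counted when it shared at least 1 bp with a region. Starts came from the RefSeq promoter table. For 4357 protein-coding genes without a listed start both ends of the gene span were used instead, which gave 328 regions their gene. The region set and all lists were chosen with earlier results of these data known. Named are the 10 genes with most regions, up to 4 genes with a region per list, the genes nearest to the 8 regions with the highest lowest fold, and the 6 largest falls and 4 largest rises with an adjusted p under 0.05 and a mean log2 CPM of at least 4. A gene that this rule names is not reported here. Other genes of the lists, of the printed promoters or singled out in the text were added after their values were seen. Sequences were limited to promoter windows of listed starts. The main fits held no term for the replicate number, so their p-values use no pairing. The number entered only the replicate block, an alternative fit. Same-numbered permissive and nonpermissive RNA libraries at 48 h deviated together over 7484 genes (correlations of 0.576, 0.152 and 0.127). Differently numbered libraries 2 and 3 of these groups correlated as much (0.187 and 0.135), so number 1 alone stood apart. Control 1 also deviated with permissive 1 (0.512) and with nonpermissive 1 (0.336). The labels do not say what a number shares. At 24 h same-numbered libraries did not deviate together (0.00793, -0.0469 and -0.0745), and control at 48 h has only 2 numbers. Intervals and floors cover counting error only.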

Additional observations from a re-analysis of the deposited data

How the results depend on the processing

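The falls of nearest genes kept their direction and stayed within 1.5 times their count under DESeq2, other size factors, no low-count filter and the replicate block, at 48 h and 24 h, except for nonpermissive minus control. The replicate block, which pairs libraries by number, gave 297 falls in permissive minus control, 282 in permissive minus nonpermissive and 353 at 24 h. In nonpermissive minus control the falls numbered 18 with DESeq2, 21 without the low-count filter, 3 with the block, and 0 within 20 kb or with listed starts only, and the rises 2 and 4 with the first 2 of these. Leaving out 1 library at a time gave 0 to 5 falls there. Rises left 13 to 25 genes in permissive minus control, 20 to 31 in permissive minus nonpermissive and 48 to 98 at 24 h when 1 library was left out. Within 20 kb, 5, 11 and 32 genes rose in these comparisons, and 234 fell at 24 h, where fewer genes were tested. With only H3K27ac peaks of a −log10 q of at least 5 counted in every library, the set held 260 regions. Weaker permissive peaks then counted as absent, so these 260 regions can carry a deposited permissive peak and are not a stricter part of the lost regions. With that limit in control and nonpermissive libraries only, and all permissive peaks kept, the set held 62. With 1 library left out it held 1897 to 4904. The share of nearest genes that fell was then 36.6%, 44.4% and 16.6% to 27.7%, and 55.6% for genes with a region over a listed start, a choice made after seeing the data. With ATAC peaks at a −log10 q of at least 5, the open share was 67.6% and 43.5% in control 1 and 2, 39.5% and 63.8% in nonpermissive, and 5.3% and 29.6% in permissive libraries, and 4.57% were open in all 6. For the 260 regions it was 99.6%, 98.5%, 97.7%, 99.2%, 53.8% and 90% in the same order, with 52.3% open in all 6 and 6.54% open in the 4 and neither permissive library. Where a cause is not shown by the construction, it was not tested. Among 70 named genes, 11 of them named outside the rule, 3096 of the values under an alternative kept their call, 49 gained and 65 lost it, and none changed sign with a call. Depth of the peak lists is unknown, so a missing peak may reflect depth or signal, which cannot be told apart.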
